A study of Homo sapiens with 31 samples.

Results

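EIF4A2 KO cells of the human embryonic kidney line HEK293 T-REx carry, by their label, a knockout of EIF4A2. The response of their ribosome footprints to PP242, an inhibitor of the mTOR kinase, was measured in 4 of the 31 sequencing libraries of the series. By their labels, those 4 are 2 libraries of EIF4A2 KO cells given DMSO (the solvent control), 1 given 1 µM PP242 and 1 given 10 µM PP242, both for 30 min. The comparison set both doses together against DMSO, and each dose was also taken alone. The matching 4 libraries of naive cells (no knockout) and 4 of EIF4A1 KO cells of the same line were used where the response was compared between genotypes. The labels do not say how the knockouts were made or whether a line is 1 clone, nor whether libraries of a group came from separate cultures, so p-values measure the spread between libraries, which may be technical. They name no date or sequencing run, so a difference between genotypes and one between rounds of library making cannot be told apart.

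mTORC1 is a kinase complex that couples nutrient and growth factor signals to protein synthesis. When it is inhibited, 4E-BP proteins bind the cap-binding factor eIF4E and keep it from the scaffold eIF4G, and the RNA-binding protein LARP1 binds mRNAs that start with a 5' terminal oligopyrimidine (TOP) tract, which include those of ribosomal proteins. eIF4A1 and eIF4A2 are paralogous DEAD-box RNA helicases of translation initiation. Ribosome profiling counts the RNA fragments that ribosomes shield from RNase I, so a transcript's count reflects its RNA level as well as the number of ribosomes on it. RNA-seq of PP242-treated or EIF4A2 KO cells was not analysed here, and a change in footprints cannot be told apart from a change in the RNA.

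The tables list Ensembl transcripts without gene names, and no table used here pairs the IDs with genes. No transcript was therefore assigned to a gene, the level of EIF4A2 itself could not be read, and the identity of the cells and their genotype rest on the labels. Of 227264 transcripts, 94734 had at least 1 count in the series. Transcripts whose counts were equal in all 31 files were collapsed, which left 77343 distinct rows, of which 54938 had enough counts to be tested. Rows of the same locus still share reads, so counts are also given per locus, a locus being neighbouring rows whose levels moved together (35499 in all, 20523 with a tested row). Total counts over the distinct rows of the EIF4A2 KO libraries ran from 12876644 to 16135422. Naive profiling libraries ran from 7933708 to 19075559 and those of EIF4A1 KO cells from 7467192 to 18924586. The EIF4A1 KO DMSO libraries held 8166555 and 7467192. Numbers of calls in different genotypes thus rest on unequal depth, and its share in their differences was not tested. The EIF4A2 KO DMSO replicates differed by more than counting noise (chi-square of 1.56 per degree of freedom over 18845 rows). In 3 rows, every naive library had at least 10 CPM (counts scaled to the same library total). Every EIF4A2 KO library had less than 20% of the lowest naive value in those rows, where the highest was 2.78 CPM. The genes of these rows are not known, so they do not check the label.

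In EIF4A2 KO cells the footprints of more rows fell than rose after PP242, and the falls were larger. With edgeR's quasi-likelihood test at a Benjamini-Hochberg adjusted p under 0.05, 7791 rows (14.2% of those tested) were called: 4688 fell (8.53%) and 3103 rose (5.65%). At an unadjusted p under 0.05 there were 14199 rows. The falling rows lay in 1661 loci and the rising rows in 1212, with 6 loci holding both. The median log2 change of the falling rows was -0.54, with 5% of them at or below -1.96, and that of the rising rows was 0.38, with 5% of them at or above 0.78. The median over all tested rows was 0.02. Scaling was relative, so a change common to all transcripts cannot be seen. Falls and rises are thus relative to the other rows. Leaving out any one of the 4 libraries left between 4615 rows (without the 1 µM library) and 5590 (without the 10 µM library). It left 4891 without DMSO replicate 1 and 4940 without DMSO replicate 2.

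Large changes were mostly falls. Of the falling rows, 878 (319 loci) fell by more than 1 on the log2 scale, 219 (69 loci) by more than 2 and 43 by more than 3. Of the rising rows, 82 (66 loci) rose by more than 1, 9 by more than 2 and 0 by more than 3. The 82 were mostly rare: 79 had a mean under 10 CPM, and the median of their mean levels was 1.12 CPM, beside 50.8 CPM for rows falling by more than 1 and 5.24 CPM for all tested rows. Among the 18580 rows with a mean of at least 10 CPM, 619 fell by more than 1 and 3 rows of 1 locus rose by more than 1. The groups did not overlap in 4681 of the 4688 falling rows and in 3101 of the 3103 rising rows, that is, both PP242 libraries lay on the same side of both DMSO libraries. Over all tested rows, both PP242 libraries lay below both DMSO libraries in 25.5% and above both in 28.2%. The share among called rows follows from the calls themselves. The share of rows called rose with level. Rows were split by mean level into 10 bins of equal size. In the lowest bin, 0.801% fell and 0.455% rose, with a median standard error of 0.49 on the log2 scale. In the highest, 37.5 to 2043 CPM, 31.6% fell and 17.8% rose, with a median standard error of 0.07.

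**Figure D1:**
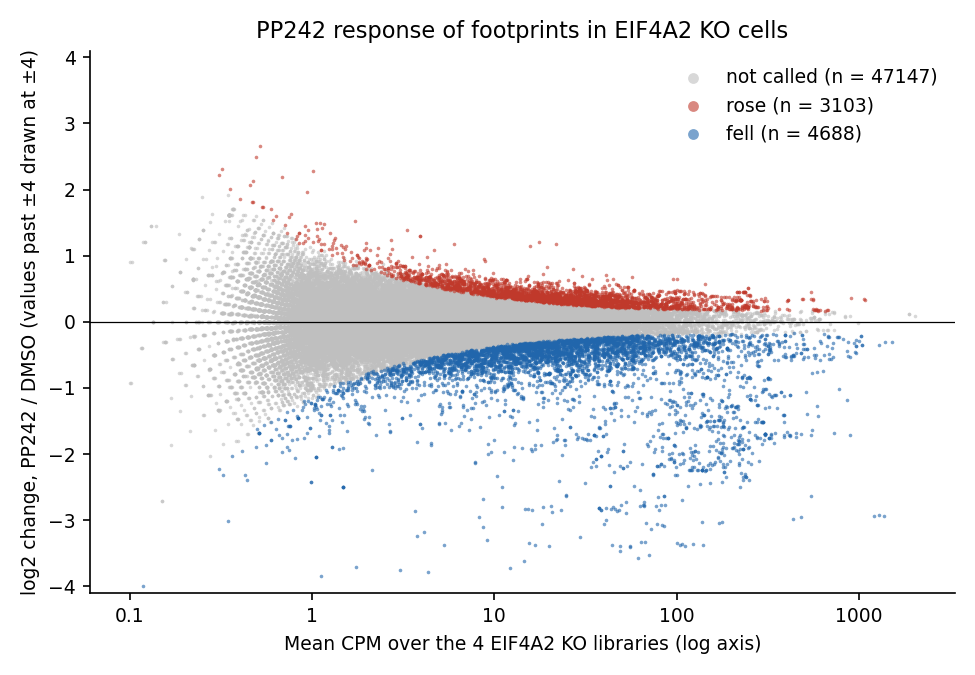
Log2 change after PP242 (both doses) against DMSO in EIF4A2 KO cells for each tested row with a mean over 0.1 CPM, plotted against its mean CPM over the 4 libraries on a log axis. Blue rows fell (4688 in all), red rows rose (3103) and grey rows were not called. Of the 878 blue rows below -1, 619 had at least 10 CPM and the others less, while of the 82 red rows above 1, 79 had under 10 CPM.

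The size of the response in single transcripts is shown by the 2 rows that fell most and the 2 called rows that rose most among those with a mean of at least 10 CPM, 1 per locus. ENST00000361436.10 had 127.0 and 133.3 CPM in the DMSO libraries, 10.5 CPM at 1 µM and 11.9 CPM at 10 µM. Its PP242 libraries held 8.07% and 9.12% of the DMSO mean, and the log2 change was -3.53 ± 0.09 (SE; edgeR adjusted p = 1.14e-38). ENST00000551150.5, whose counts 3 transcripts share, had 260.2 and 246.8 CPM in DMSO, 23.1 CPM at 1 µM and 25.5 CPM at 10 µM. That is 9.12% and 10.0% of the DMSO mean, a log2 change of -3.38 ± 0.09 (SE; edgeR adjusted p = 8.9e-38). In both, the PP242 values lay far below both DMSO values. All rows of their loci fell, 2 and 7 rows with these included.

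Rises were smaller. ENST00000325680.12 had 14.3 and 12.5 CPM in DMSO, 28.7 CPM at 1 µM and 32.1 CPM at 10 µM, a log2 change of 1.18 ± 0.11 (SE; edgeR adjusted p = 1.22e-13). ENST00000644881.1 had 33.3 and 29.2 CPM in DMSO, 53.9 CPM at 1 µM and 48.2 CPM at 10 µM, a log2 change of 0.71 ± 0.09 (SE; edgeR adjusted p = 5.66e-09). Both PP242 values lay above both DMSO values in each, and all 4 and 3 rows of their loci rose. Over the genotypes, the rows that fell did so in each. ENST00000361436.10 changed by -2.94 in naive and -2.08 in EIF4A1 KO cells, and ENST00000551150.5 by -2.72 and -1.64. The rows that rose moved in naive cells (1.41 and 0.63) and not detectably in EIF4A1 KO cells: ENST00000325680.12 changed by -0.13 ± 0.11 (SE; edgeR adjusted p = 0.558) and ENST00000644881.1 by 0.11 ± 0.09 (SE; edgeR adjusted p = 0.587). The difference between these knockouts was 1.31 ± 0.15 (SE; edgeR adjusted p = 4.12e-09) for ENST00000325680.12 and 0.60 ± 0.13 (SE; edgeR adjusted p = 0.00135) for ENST00000644881.1. In the EIF4A1 KO cells ENST00000325680.12 stood at 33.4 and 29.1 CPM already in DMSO, and ENST00000644881.1 at 47.3 and 40.9 CPM. All 4 transcripts were chosen by their change in EIF4A2 KO cells, so their differences from other genotypes lean towards a larger change there.

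**Figure D2:**
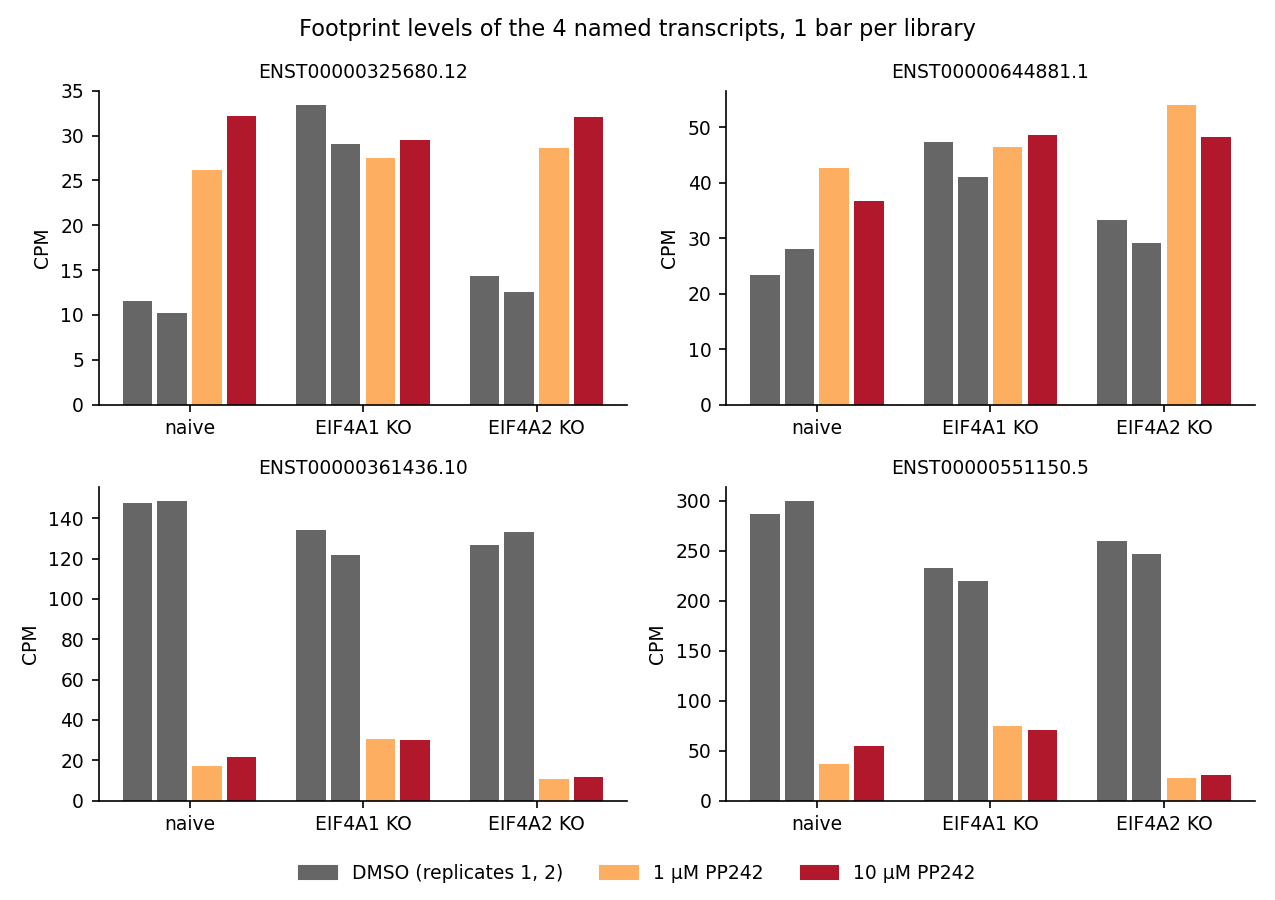
Footprint CPM of the 4 transcripts in each of the 12 ribosome profiling libraries, 1 bar per library, grouped by genotype (grey, DMSO; orange, 1 µM; dark red, 10 µM PP242). In EIF4A2 KO cells ENST00000361436.10 goes from 127.0 and 133.3 CPM to 10.5 and 11.9 CPM, while ENST00000325680.12 rises from 14.3 and 12.5 CPM to 28.7 and 32.1 CPM.

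The responses at the 2 doses were alike in size. In a fit with one mean per genotype and dose, in which the lone library of a dose is assumed to vary like the DMSO pairs, 6277 rows (11.4%) were called at 1 µM (2283 rose, 3994 fell) and 5194 (9.45%) at 10 µM (1780 rose, 3414 fell). The 2 comparisons share their DMSO libraries. Median changes of the 4688 rows called over both doses were -0.57 at 1 µM and -0.51 at 10 µM, and those of the 3103 rising rows 0.39 and 0.36. Between 10 µM and 1 µM, 0 rows (0%) were called by edgeR, with 2843 at an unadjusted p under 0.05, and DESeq2 also called 0, with 87. With 1 library per dose this does not show that the doses acted alike. The measured spread was small, however: over the 18580 rows of at least 10 CPM the SD of the log2 difference between the doses was 0.142, and that between the DMSO replicates 0.143, while the change from DMSO to PP242 had an SD of 0.425. A difference of more than 0.5 was found in 0.237% of rows between doses, in 0.221% between DMSO replicates and in 9.07% between PP242 and DMSO. The PP242 change set the mean of 2 libraries against the mean of 2, the other differences 1 library against 1. Averaging lowers its noise, so these measures are not alike. When each dose was set against a different DMSO replicate, so that no library was shared, the changes at 1 µM and 10 µM correlated across the 6063 rows of that level (1 row per locus) with a Pearson r of 0.882 or 0.879, depending on which replicate went with which dose (Spearman rho 0.740 and 0.736). These are correlations across transcripts, which are not independent replicates.

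**Figure D3:**
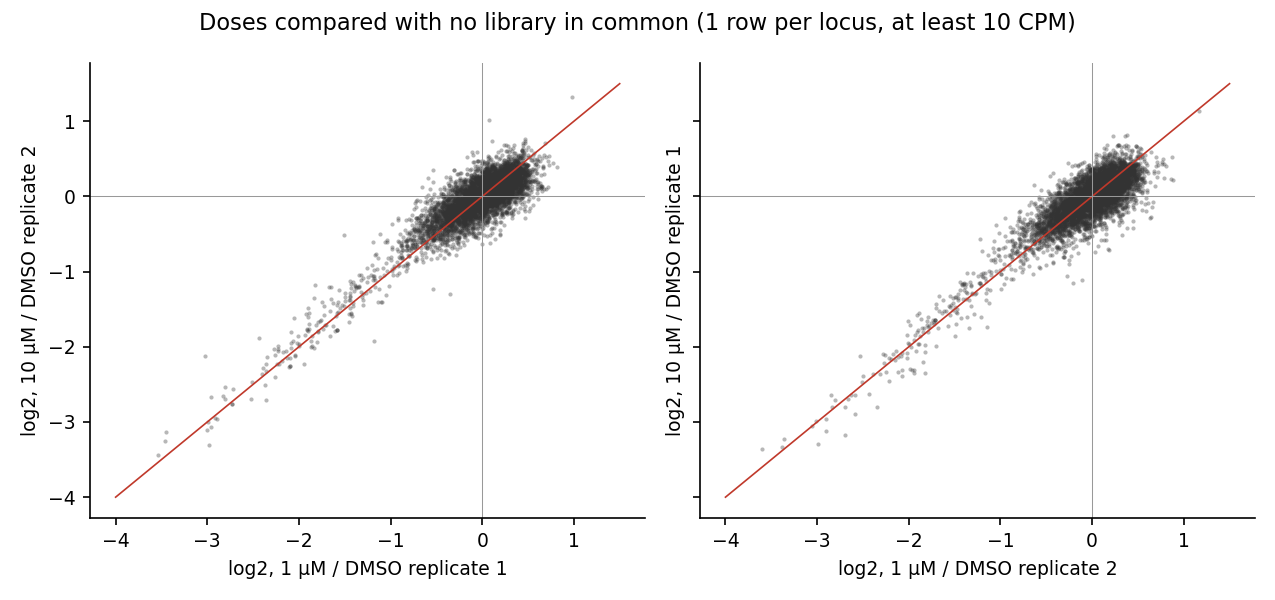
Log2 change at 10 µM PP242 (vertical axis) against that at 1 µM (horizontal axis) in EIF4A2 KO cells for the 6063 rows with a mean of at least 10 CPM, 1 per locus, each dose set against a different DMSO replicate in each panel. The red line marks equal change, and the points lie along it from about the origin to below -3, with Pearson r of 0.882 on the left and 0.879 on the right.

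Falls were most frequent among the transcripts most abundant at the RNA level. Rows (1 per locus) were ranked by their counts in the 2 RNA-seq libraries of naive cells, which take no part in the response. Over the 20505 rows tested by locus, 7.29% fell and 5.05% rose. The share called also rose with footprint level, to 31.6% falling in the highest of 10 level bins over all tested rows. The 100 rows with the most RNA-seq counts had a median footprint level of 283 CPM. The part of level in their calls was not tested. Of the 100 rows with the most RNA-seq counts, 87 fell, 1 rose and 12 were not called, the last changing by -0.13 to 0.17. Their median log2 change was -1.50, 66 of them fell below -1 and 24 below -2, and both PP242 libraries lay under both DMSO libraries in 89, beside 24.9% of the 20505 rows. The median difference from the DMSO mean was 0.00 in each DMSO library and -1.46 at either dose. Of ranks 101 to 500, 180 fell and 70 rose (median -0.12), and of ranks 501 to 1000, 114 fell and 101 rose (median 0.01). These 100 rows took 15.6% and 15.5% of the footprints in the DMSO libraries, counted over 1 row per locus, and 9.67% at 1 µM and 9.92% at 10 µM (95% Wilson half-widths of at most 0.04 percentage points for these shares and those below, counting error only).

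Ranking by RNA-seq counts per unit of deposited length, for rows of a length of at least 30, gave a set with a still higher share of falls. Of the top 100, 97 fell and 0 rose by edgeR, and the 3 others changed by -0.07 to 0.08. The median was -1.71, and 84 lay below -1 and 30 below -2. Of the 399 rows tested among ranks 101 to 500, 233 fell and 20 rose, with a median of -0.29. In naive cells 94 of the top 100 fell (median -1.56), beside 5.76% of the 20505 rows. In EIF4A1 KO cells 89 fell and 4 rose (median -1.21), beside 3.58% and 2.49%. The change in EIF4A2 KO cells was below that in EIF4A1 KO cells in 77 of the 100 by the test of the difference and above it in 0, with a median difference of -0.48. Over all 20505 rows, that difference was called lower in 3.77% and higher in 2.5%. Against naive cells the difference was called lower in 4 of the 100, beside 0.078% of the 20505 rows.

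**Figure D4:**
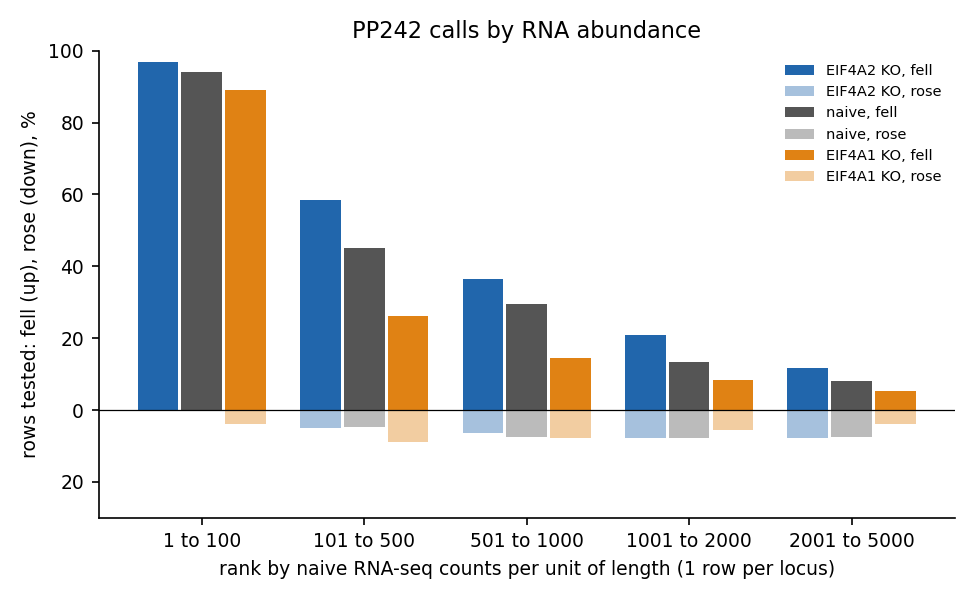
Percent of tested rows that fell (bars upward) and rose (bars downward) after PP242, by rank of RNA-seq counts per unit of length in naive cells, 1 row per locus, for EIF4A2 KO (blue), naive (grey) and EIF4A1 KO cells (orange). In EIF4A2 KO cells 97% of ranks 1 to 100 fell, against 58.4% of ranks 101 to 500 and 11.6% of ranks 2001 to 5000.

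Response also followed the length deposited with each transcript, whose unit the files do not give and which was used for ranking. Falls were more frequent among short transcripts and rises among long ones. Among the 6063 rows of at least 10 CPM, 1 per locus, 17.7% fell and 12.8% rose. These were split by length into 10 bins of equal size. In the shortest bin (607 rows, lengths 11 to 134) the median log2 change was -0.22, with 263 falling and 15 rising. In the longest bin (607 rows, lengths 1226 to 8788) it was 0.21, with 20 falling and 228 rising. Spearman's rho between length and change was 0.441, and it was 0.438 at 1 µM and 0.412 at 10 µM, while the difference of a DMSO replicate from the DMSO mean had a rho of at most 0.020 in size. Over all 54938 tested rows, most of them rarer, rho was 0.196 (0.196 at 1 µM and 0.172 at 10 µM), and it was 0.110 in naive and -0.023 in EIF4A1 KO cells. The median of each DMSO replicate's difference in the shortest and longest bins was at most 0.010. The relation was also present without the most abundant RNAs. Outside the 500 rows with the most RNA-seq counts, rho was 0.426 over 5565 rows, and the medians of the shortest and longest of 10 bins were -0.19 and 0.21.

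The other genotypes were read in the same length bins. In naive cells the median went from -0.14 in the shortest bin to 0.16 in the longest (rho 0.343), and in EIF4A1 KO cells from -0.06 to -0.07 (rho -0.061). Of the 607 shortest rows, 196 fell and 27 rose in naive cells, and 116 fell and 39 rose in EIF4A1 KO cells. Of the 607 longest, 16 fell and 155 rose in naive cells, and 55 fell and 14 rose in EIF4A1 KO cells. Over the 6063 rows, 13.6% fell and 11.1% rose in naive cells, and 10.2% fell and 4.8% rose in EIF4A1 KO cells. The EIF4A1 KO falls were 19.1% of the shortest bin and 9.06% of the longest. Falls were thus also more frequent in the shortest than in the longest bin in EIF4A1 KO cells, while rises were not more frequent in the longest. The difference between EIF4A2 KO and EIF4A1 KO cells was called lower in 157 and higher in 7 of the 607 shortest rows, and lower in 10 and higher in 161 of the 607 longest, beside 9.35% lower and 7.22% higher over the 6063. Its median went from -0.21 to 0.27. Against naive cells, 6 of the 607 shortest rows were called lower, beside 0.231% of the 6063.

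**Figure D5:**
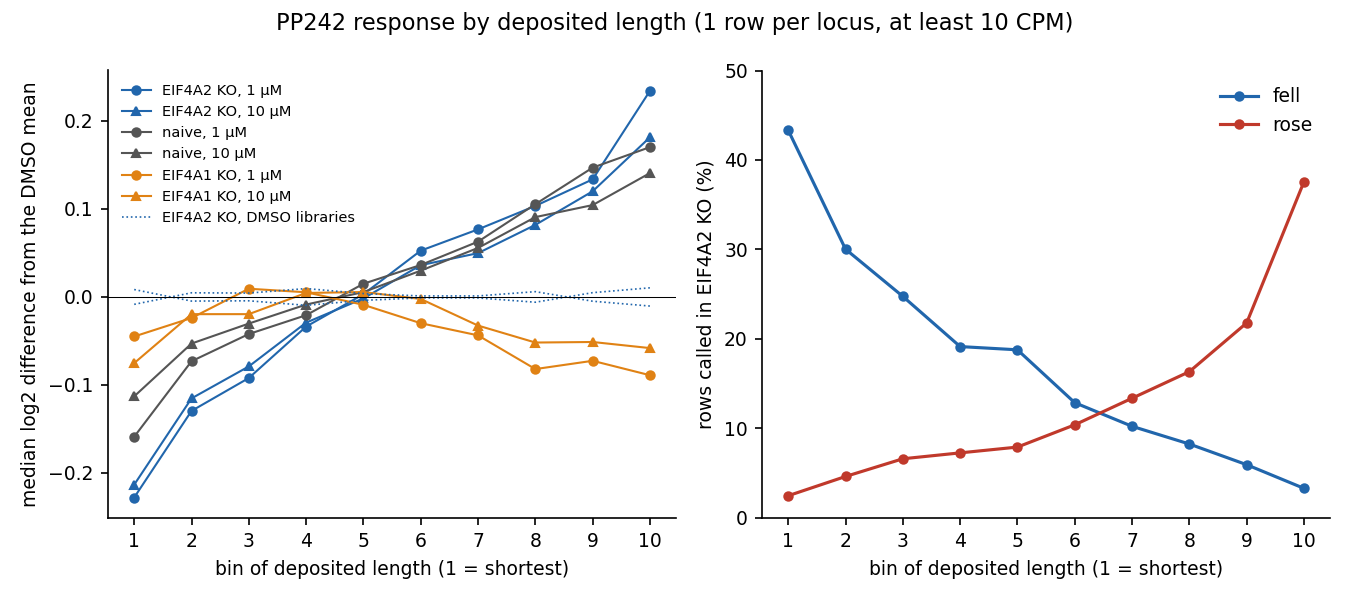
Left, median log2 difference of each library from the mean of its genotype's DMSO libraries, by bin of deposited length (1 is shortest; 6063 rows of at least 10 CPM, 1 per locus); circles are 1 µM, triangles 10 µM and dotted lines the DMSO libraries of EIF4A2 KO cells. Right, percent of those rows that fell (blue) and rose (red) in EIF4A2 KO cells. Falls go from 43.3% in the shortest bin to 3.29% in the longest and rises from 2.47% to 37.6%.

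Which transcripts responded was then read from naive cells, whose libraries are not shared with EIF4A2 KO cells. In naive cells 6342 rows were called (11.5%), and the falls were 6.71% and the rises 4.83% of the tested rows. Of the 3689 rows that fell in naive cells (1317 loci), 2696 (73.1%) fell in EIF4A2 KO cells and 1 rose, with a median of -0.51 and 97.1% below 0. In EIF4A1 KO cells 1227 (33.3%) fell and 171 rose, with a median of -0.17. Over all tested rows, 8.53% fell in EIF4A2 KO cells, and in EIF4A1 KO cells 4.14% fell and 2.66% rose (6.81% in all). The 3689 rows had a median level of 23.7 CPM. Among rows of at least 10 CPM, 18.9% fell in EIF4A2 KO cells, and 10.4% fell and 4.73% rose in EIF4A1 KO cells. Tested as a difference, the response was lower in EIF4A2 KO than in EIF4A1 KO cells in 1339 of the 3689 rows (36.3%). It was higher in 2. The shares were 4.21% and 2.63% of all tested rows, and 9.62% and 6.63% at 10 CPM or more. The rows of this set that stood 1 per locus (1182) took 29.4% and 29.0% of the footprints in the EIF4A2 KO DMSO libraries, 18.0% at 1 µM and 18.7% at 10 µM. The 869 rows that fell by more than 1 in naive cells had a median of -1.53 in EIF4A2 KO cells, where 688 fell and 0 rose, and of -1.01 in EIF4A1 KO cells.

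The rising rows were read in the same way. Of the 2653 rows that rose in naive cells (1074 loci), 1228 (46.3%) rose in EIF4A2 KO cells and 2 fell, with a median of 0.27, beside a background of 5.65% higher. In EIF4A1 KO cells 109 (4.11%) rose and 92 (3.47%) fell, with a median of 0.01, beside 2.66% and 4.14% of all tested rows. The 2653 rows had a median level of 24.2 CPM. Among rows of at least 10 CPM, 12.8% rose in EIF4A2 KO cells, and 4.73% rose and 10.4% fell in EIF4A1 KO cells. The difference was called higher in EIF4A2 KO than in EIF4A1 KO cells in 583 of the 2653 rows (22.0%). It was called lower in 14 (0.528%). The shares were 2.63% and 4.21% of all tested rows, and 6.63% and 9.62% at 10 CPM or more. In EIF4A2 KO cells the 875 rows that stood 1 per locus took 10.8% and 10.9% of the footprints of the DMSO libraries, 14.5% at 1 µM and 14.2% at 10 µM.

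Over all tested rows, the response of EIF4A2 KO cells differed from that of EIF4A1 KO cells in 3762 rows (6.85%), lower in 2315 and higher in 1447. It differed from that of naive cells in 56 rows (0.102%), lower in 54 and higher in 2, with 3681 rows at an unadjusted p under 0.05. Without the 1 µM library of EIF4A2 KO cells the difference from naive cells was called in 14 rows and without DMSO replicate 2 in 22. Without DMSO replicate 1 the difference from EIF4A1 KO cells was called in 2142 rows, and without the 1 µM library in 2311. The named transcripts were chosen by their change in EIF4A2 KO cells, so their differences lean towards a larger change there. For the transcripts named above, the difference from EIF4A1 KO cells was -1.45 ± 0.13 (SE; edgeR adjusted p = 4.73e-13) for ENST00000361436.10 and -1.74 ± 0.12 (SE; edgeR adjusted p = 2.22e-16) for ENST00000551150.5.

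Readouts that PP242 does not enter were compared across the called rows. The median deposited length was 180 for rows that fell, 235 for rows not called and 612 for rows that rose. Pulldown of eIF4A1 tagged with streptavidin-binding peptide (SBP) was set against its input. It gave median log2 enrichments of 0.20 for rows that fell, 0.01 for rows not called and -0.65 for rows that rose. The replicates stood at 0.19 and 0.22, 0.01 and 0.01, and -0.65 and -0.66. Pulldown of SBP-eIF4A2 gave -0.21, 0.05 and -0.46. No control pulldown without the tag was analysed here, so these values include RNA that binds the beads. After LARP1 siRNA, input RNA changed against control siRNA by medians of -0.23, 0.02 and 0.01, with replicates at -0.23 and -0.23 for rows that fell. Each replicate value set 1 pulldown or LARP1 siRNA library against the mean of both its input or control siRNA libraries. Replicate values therefore share that mean and show only the spread of the pulldown or LARP1 siRNA libraries. Footprints per RNA count in untreated naive cells were at medians of 0.25, -0.08 and 0.09 on the log2 scale, and at -0.31 for rows that fell by more than 1.

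Length moved with both the response and these readouts, so the medians were also taken within 3 length classes (short, middle, long; equal in size over all tested rows), at 10 CPM or more. In the short class, the 1357 rows that fell had a median SBP-eIF4A1 enrichment of 0.52, beside 0.04 for the 2194 not called and -0.29 for the 130 that rose. In the middle class these values were 0.13, -0.06 and -0.45, and in the long class -0.46, -0.60 and -0.84. The order of the 3 groups was thus the same in each class. SBP-eIF4A2 did not keep one order: rows that fell stood at -0.16 beside -0.28 for those not called in the short class, at -0.37 beside -0.26 in the middle class and at -0.69 beside -0.48 in the long class. Rows that rose stood at -0.50, -0.49 and -0.61 for SBP-eIF4A2, below those not called in each class, as for SBP-eIF4A1. The change of input RNA after LARP1 siRNA was lowest for rows that fell in the short class (-0.38, beside -0.16 for rows not called) and the middle class (-0.23 beside -0.08), and in the long class the values were -0.01 and 0.04. There the replicates for the rows that fell stood at 0.04 and -0.08, on either side of 0. Footprints per RNA count in naive cells changed their order with length. For rows that fell, were not called and rose, the medians were 0.46, 0.75 and 0.91 in the short class, 0.28, 0.44 and 0.66 in the middle class and 0.18, 0.07 and 0.02 in the long class. Rows that fell were thus lowest in the short and middle classes and highest in the long one. RNA level in naive cells also differed between the groups within each class and was not held fixed. For rows that fell, were not called and rose, its median log2 CPM was 4.81, 3.57 and 3.45 in the short class. It was 5.03, 3.95 and 4.23 in the middle class and 5.25, 4.30 and 4.71 in the long class. All these medians describe the called groups and were not tested.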

How the data were processed

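Ribosome profiling libraries (12, from naive, EIF4A1 KO and EIF4A2 KO cells) were the main data; RNA-seq and pulldown libraries served as readouts outside the response. The files have no header line, so columns were read from their values: the authors deposited 1 file per library with whole-number counts per Ensembl transcript and a length of unknown unit, in which some values lie below 0. CASAVA 1.8, STAR 2.7.0a and build hg38 are named per the submitters' processing notes. Counter and annotation are not given in the sources used here. Reads shared by transcripts count in each of them, as the many equal rows show.

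Rows with equal counts in all 31 files were collapsed. edgeR 4.0.16 (R 4.3.3) was fitted to the 12 libraries after filterByExpr (minimum count 10, minimum total 15) and TMM scaling, one mean per genotype and PP242 state (6 residual degrees of freedom; per dose, 3), glmQLFTest, two-sided, and Benjamini-Hochberg adjustment over the 54938 rows tested. Scaling is relative: a change common to all transcripts cannot be seen. TMM factors in EIF4A2 KO libraries were 0.942 to 1.068. CPM used these factors; a pseudocount of 0.5 CPM entered log2 values of single libraries. A locus was built by taking rows in order of total count and dropping rows within 10 rows of a kept one at a correlation of at least 0.9, so it is approximate. DMSO numbers do not pair libraries. In simulated counts for the response (54233 rows, drawn independently), changes were planted in 50 rows per size, each with a mean of at least 50 counts. Falls of -1 log2 were recovered in 94% and rises of 1 in 98%, those of -0.5 and 0.5 in 56% and 74%, with 4 false calls. These rates do not cover rare rows or rows that share reads.

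The libraries, row sets and the coding of the dose were chosen with earlier results of these data known. With no table pairing transcripts and genes, the planned gene lists (0 rows matched) and marker checks were not run, and the rule for named items fell back to 2 transcripts that rose and 2 that fell: the called rows with the largest changes at a mean of at least 10 CPM, 1 per locus, with both PP242 libraries outside the DMSO range. Alternatives were DESeq2 (1.42.0) size factors and Wald test, no filter, dose slopes, the 4 libraries alone, 1 row per locus and each library left out.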

Additional observations from a re-analysis of the deposited data

Results flagged for a closer look

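Differences of the PP242 response between genotypes passed edgeR's test of the difference itself. The response of EIF4A2 KO cells differed from that of naive cells in 56 rows and from that of EIF4A1 KO cells in 3762 rows. Against naive cells, ENST00000551150.5 fell further in EIF4A2 KO cells, by a log2 difference of -0.66 (edgeR adjusted p = 0.00965). Against EIF4A1 KO cells, ENST00000361436.10 differed by -1.45 and ENST00000551150.5 by -1.74, both lower in EIF4A2 KO cells. ENST00000325680.12 differed by 1.31 and ENST00000644881.1 by 0.60, both higher in EIF4A2 KO cells. These 4 transcripts were chosen as the largest changes in the same EIF4A2 KO libraries. Their differences and p-values therefore lean towards a larger change in EIF4A2 KO cells. No group of the response has 4 samples, so single libraries were not tested for standing apart. What underlies these differences was not tested.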

How the results depend on the processing

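DESeq2 size factors kept the counts of calls within 1.5 times, and no direction of the 4 named transcripts reversed under the alternatives run. The response was called in 4621 rows by DESeq2's Wald test, 2400 with 1 row per locus (20505 tested), 1367 by a slope over dose scores of 0, 1 and 2, and 0 by a slope over log2(dose + 1), where 5289 rows had an unadjusted p under 0.05. Both slopes assume more change at 10 µM than at 1 µM. Leaving out 1 EIF4A2 KO library gave 4615 to 5590 rows. The difference from naive cells was called in 88 rows without the filter, 118 with one mean per dose, 18 by DESeq2, 14 with 1 row per locus, 0 by either slope (2056 and 1569 at an unadjusted p under 0.05), and 14 to 46 with 1 EIF4A2 KO library left out. The difference from EIF4A1 KO cells was called in 2130 rows by DESeq2, 1275 with 1 row per locus, 1 by the dose score, 0 by log2(dose + 1) (2472 unadjusted), and 2142 to 3214 with 1 EIF4A2 KO library left out. At 1 µM, DESeq2 called 2120 rows and 1 row per locus 1939, and leaving out a DMSO library gave 4545 to 4612. At 10 µM these were 1693, 1704 and 3711 to 3877. Between doses, 5 rows were called without the filter and 3 with 1 row per locus. Beyond the slopes' assumption and the smaller numbers of rows or libraries, the cause of these shifts was not tested. The slope over log2(dose + 1) left none of the 4 named transcripts called, and that over the dose score did not call ENST00000644881.1. The median of the 100 rows with the most RNA-seq counts lay between -1.517 and -1.468 under alternatives other than the slopes. The 1-row-per-locus fit and the 10 µM against 1 µM contrast were added after the data were seen. A fit with 1 row per gene and the gene lists were not run. No paired analysis was possible because the PP242 libraries carry no replicate numbers and each dose has 1 library. Depth limits rare rows: standard errors had a median of 0.49 log2 in the lowest of 10 bins by level.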
